A study of Saccharomyces cerevisiae with 21 samples.

Results

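The combination of a pair of mutations in SPT6 was compared with the sum of the mutations taken singly, in budding yeast (Saccharomyces cerevisiae). The comparison used 12 of the 21 RNA-seq libraries of the study, 3 each from the wild type (WT), the single mutants spt6-R and spt6-KK, and the double mutant spt6-R,KK. All strains were growing in logarithmic phase in a rich medium at 30 °C, and neither the residues behind the mutation names nor any other allele of the strains is given in the labels. The other 9 libraries were of rpb1-TPY, rpb1-FSP and rpb1-TPY,FSP, which change the largest subunit of RNA polymerase II. The members were every gene with enough reads to be tested, 5618 of the 5823 in the table of full-gene read counts, and the quantity of interest was the departure of the double mutant from the sum of its single mutants.

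Spt6 is a histone chaperone that travels with RNA polymerase II and restores nucleosomes behind it. A pair of SH2 folds near its C-terminus contacts Rpb1, the largest polymerase subunit, at the linker that leads to its C-terminal repeats. In yeast, loss of Spt6 function is known to affect genes that are held down by transcription running over their promoter, of which SER3 is the classic example, and to let transcription start inside genes. The factorial comparison addresses whether the effects of the mutations add up in the combination.

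For each gene the log2 change against WT was estimated in spt6-R, in spt6-KK and in spt6-R,KK, and the interaction was the third change minus the other two. An interaction of 0 on the log2 scale means that the double mutant lay where adding the log2 changes of the single mutants puts it. A gene was called when its adjusted p (edgeR quasi-likelihood test, Benjamini-Hochberg) was under 0.05. Called genes were sorted by arithmetic on the fitted changes. A saturating gene moved the same way in all 3 mutants but less in the double mutant than the sum. A synergistic gene moved further in the double mutant than in either single mutant and further than the sum. The remaining called genes are termed mixed. Levels are given as CPM, read counts scaled to a common library size, and the errors of interactions are standard errors.

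The 12 libraries held between 4860861 and 7729008 reads counted over full genes. Whether the libraries of a strain were made from separate cultures is not stated, and the p-values accordingly cover the spread among libraries only, which may be technical. SPT6 itself was measured at 232, 280 and 288 CPM in WT, 137, 143 and 150 in spt6-R, 153, 217 and 205 in spt6-KK and 125, 125 and 141 in spt6-R,KK. Every mutant library lay below every WT library, and its interaction was 0.34 ± 0.23 (adjusted p = 0.494 by edgeR). RPO21, the gene of Rpb1, had an interaction of 0.13 ± 0.18 (adjusted p = 0.76 by edgeR). The mating-type a gene STE2 stood at 617 to 1282 CPM and the alpha gene STE3 at 0.785 to 8.01 CPM over the 12 libraries. MFA1, MFA2, STE6, BAR1 and AGA2, also a-specific, stood at 44.9 CPM or more, and the alpha gene MF(ALPHA)2 at 0.451 to 6.89 CPM. Other markers did not divide in this way: the a-specific ASG7 stood at 0.683 to 6.18 CPM and the alpha-specific SAG1 at 23.5 to 63.3 CPM.

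Of the 5618 genes, 20 departed from the sum, which is 0.356% of the genes tested. The double mutant lay above the sum in 6 of them (0.107%) and below it in 14 (0.249%). Against WT, 8.49% of genes were called in spt6-R, 13.3% in spt6-KK and 36.7% in spt6-R,KK, and spt6-R,KK differed from spt6-R in 14.1% and from spt6-KK in 26.6%. Saturating genes numbered 10, synergistic genes 4 and mixed genes 6. The balance of the shapes depended on the fit: there were 16 saturating and 22 synergistic genes with the 12 libraries alone, 40 and 43 with DESeq2, and 0 to 30 synergistic genes with 1 library left out. Of the saturating genes 8 were higher than WT in all 3 mutants and 2 were lower. By the fitted changes, the double mutant moved at least as far as the larger single mutant in 5 of the saturating genes. In the other 5 it moved less far, so the term covers both cases. The median interaction over all genes was -0.01, and the 5% of genes at either end lay below -0.66 or above 0.72 on the log2 scale. The median standard error of an interaction was 0.235, against 0.167 for spt6-R,KK compared with WT. The 95% interval of the interaction lay within 1 log2 unit of 0 on both sides for 4018 genes (71.5%), and smaller departures were not detectable for many genes at this spread. At an unadjusted p under 0.05 there were 840 genes (15%), DESeq2 called 104 (1.85%), and 114 genes had an adjusted p between 0.05 and 0.10. An edgeR fit with an added term for the replicate number (a replicate block) called 80, which included all 20.

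**Figure D1:**
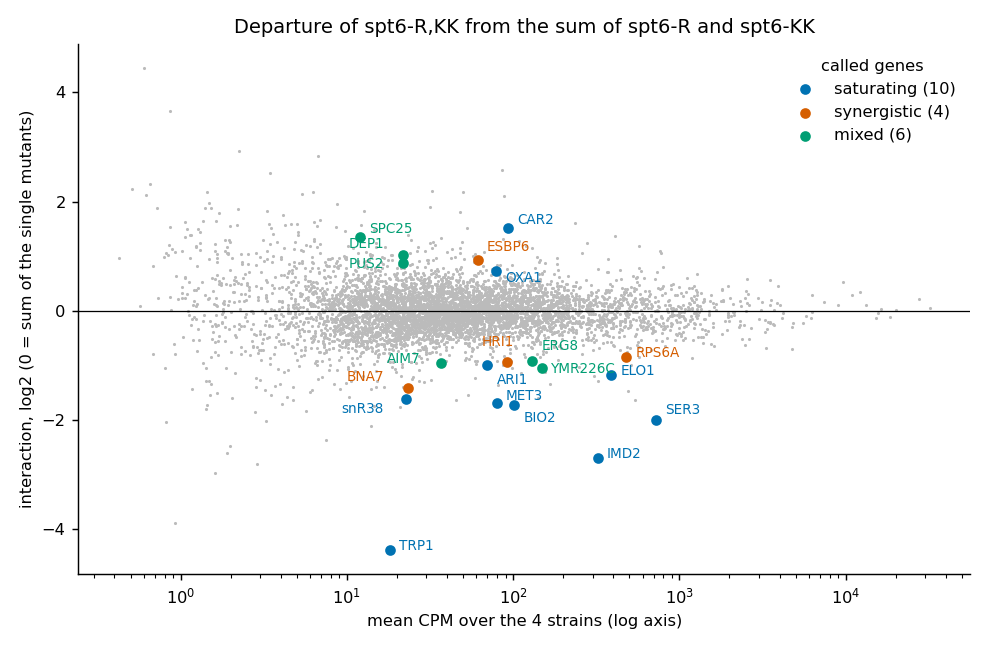
Interaction on the log2 scale (vertical axis) against the mean level over the 4 strains in CPM (log axis), with 1 grey point per gene and the 20 called genes coloured by shape. Among the called genes TRP1 at -4.38, IMD2 at -2.70 and SER3 at -1.99 lie furthest below 0, and CAR2 at 1.52 is the highest.

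The saturating genes that rose included IMD2, SER3 and BIO2. In each, either mutation alone gave a level far above WT, and the double mutant lay at most 0.79 above a single mutant on the log2 scale. Their promoter regions are shown because these genes, after TRP1, had the largest saturating interactions. Each window holds 250 bases and begins 350 bases before the start codon in the R64 genome, and capitals mark a match on either strand to any of 5 motifs: AGGGG (known to be bound by Msn2 and Msn4), the TATA motif TATAAA, the Gcn4 motif TGACTC, the Pho4 and Cbf1 motif CACGTG and the Aft1 motif TGCACCC.
IMD2 (chrVIII:554046-554295, plus strand): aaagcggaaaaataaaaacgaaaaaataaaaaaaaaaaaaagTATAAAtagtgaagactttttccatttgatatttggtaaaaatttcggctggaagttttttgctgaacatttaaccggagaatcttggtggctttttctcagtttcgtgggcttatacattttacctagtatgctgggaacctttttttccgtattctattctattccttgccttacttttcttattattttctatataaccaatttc
SER3 (chrV:322336-322585, plus strand): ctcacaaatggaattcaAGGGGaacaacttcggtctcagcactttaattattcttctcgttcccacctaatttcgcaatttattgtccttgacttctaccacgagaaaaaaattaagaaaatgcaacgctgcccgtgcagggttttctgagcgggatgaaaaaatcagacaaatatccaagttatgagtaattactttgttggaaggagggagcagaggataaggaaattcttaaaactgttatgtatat
BIO2 (chrVII:1065041-1065290, minus strand): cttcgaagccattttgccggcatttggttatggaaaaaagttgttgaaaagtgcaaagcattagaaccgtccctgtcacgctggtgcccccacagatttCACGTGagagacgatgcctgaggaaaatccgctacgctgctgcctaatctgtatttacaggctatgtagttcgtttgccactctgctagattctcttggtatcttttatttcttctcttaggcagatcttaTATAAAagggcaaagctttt
The IMD2 window holds a TATAAA, the SER3 window an AGGGG and the BIO2 window a CACGTG and a TATAAA. All 250 bases of the SER3 window lie inside SRG1, a noncoding transcript on the same strand (chrV:322212-322762) whose transcription is known to repress SER3.

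IMD2 encodes IMP dehydrogenase, the enzyme that commits purine nucleotides to GTP, and is known to be controlled by the choice of transcription start site. It lies on chrVIII:554396-555967 on the plus strand, 6676 bases from a chromosome end. Its level was 35.3, 29.8 and 51.9 CPM in WT, 307, 373 and 383 in spt6-R, 322, 407 and 389 in spt6-KK, and 546, 512 and 517 in spt6-R,KK. The 3 double-mutant libraries lay above every single-mutant library, and those above every WT library. The log2 change was 3.19 in spt6-R, 3.27 in spt6-KK and 3.76 in spt6-R,KK, a 13.5-fold rise in the last. The double mutant therefore exceeded spt6-R by 0.57 (95% interval 0.24 to 0.89) and spt6-KK by 0.49 (0.17 to 0.82) on the log2 scale. The interaction was -2.70 ± 0.23 (adjusted p = 4.65e-07 by edgeR). Adding the log2 changes puts IMD2 at 3382 CPM, and adding the changes in CPM puts it at 688, both above the 525 ± 18.7 CPM measured (SD, n = 3). The related genes IMD3 and IMD4 had interactions of -0.005 ± 0.18 and -0.43 ± 0.21 (adjusted p = 0.992 and 0.347 by edgeR). How reads that match more than 1 gene of this family were counted is not stated. The neighbouring gene PHO12, which encodes an acid phosphatase, had log2 changes of 1.83, 2.03 and 3.63 and an interaction of -0.24 ± 0.71 (adjusted p = 0.894 by edgeR). Its level was low, at 0.628 to 0.902 CPM in WT and 5.77, 6.61 and 15.7 CPM in spt6-R,KK.

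SER3 encodes a phosphoglycerate dehydrogenase of serine synthesis and lies on chrV:322686-324095 on the plus strand. It measured 165, 111 and 169 CPM in WT, 527, 985 and 897 in spt6-R, 580, 981 and 926 in spt6-KK, and 1203, 1038 and 1137 in spt6-R,KK. Again no double-mutant library overlapped any single-mutant library, while library 1 of both single mutants lay below the other two of its strain. The interaction was -1.99 ± 0.38 (adjusted p = 0.0218 by edgeR). The double mutant exceeded spt6-R by 0.49 (95% interval -0.07 to 1.05) and spt6-KK by 0.44 (-0.12 to 1.00) on the log2 scale, so both intervals include 0.

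SRG1 has no row in the full-gene table used here, but was counted over the middle 70% of genes. In those counts SRG1 stood at 28.9, 36.3 and 31.4 CPM in WT, 56.5, 63.5 and 67.3 in spt6-R, 55.5, 60.0 and 62.3 in spt6-KK and 95.1, 107 and 91.7 in spt6-R,KK. Its count rose with each mutation and again in the combination, with log2 changes of 0.97, 0.90 and 1.6 against WT. SRG1 overlaps the start of SER3 on the same strand, so reads of SER3 transcripts may be part of this count, which was not tested. The interaction of SRG1 was -0.27 ± 0.16 (adjusted p = 0.451 by edgeR), and that of SER3 in the same counts was -1.95 (adjusted p = 0.0198). SER33, the paralogue of SER3, had an interaction of -0.52 ± 0.23 (adjusted p = 0.291 by edgeR) in the full-gene counts, with log2 changes of 0.32, 0.19 and -0.01.

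BIO2 encodes biotin synthase, the last enzyme of biotin formation, and lies on chrVII:1063813-1064940 on the minus strand, 26000 bases from a chromosome end. It measured 19.1, 22 and 25.5 CPM in WT, 88.3, 101.3 and 92.9 in spt6-R, 108, 135 and 138 in spt6-KK, and 130, 155 and 203 in spt6-R,KK. The double mutant lay above spt6-R in every library and overlapped spt6-KK. The log2 changes were 2.09, 2.52 and 2.88, and the interaction was -1.73 ± 0.25 (adjusted p = 0.00104 by edgeR). The step from spt6-KK to the double mutant was 0.36 (95% interval 0.01 to 0.71, adjusted p = 0.116 by edgeR).

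In MET3, ELO1, ARI1 and snR38 the double mutant was no higher than the single mutants beyond its error. MET3 encodes ATP sulfurylase, the first step of sulfate assimilation (chrX:456239-457774, plus strand). It measured 34.4, 33.1 and 36.7 CPM in WT, 105, 108 and 109 in spt6-R, 93.1, 85.0 and 91.0 in spt6-KK, and 76.2, 95.2 and 86.5 in spt6-R,KK. Every double-mutant library lay below every spt6-R library, and the double mutant overlapped spt6-KK. The interaction was -1.69 ± 0.15 (adjusted p = 1.12e-06 by edgeR), and the double mutant was 0.32 lower than spt6-R on the log2 scale (difference -0.32, 95% interval -0.55 to -0.10, adjusted p = 0.0495). MET3 was the called gene among 28 tested genes of methionine and sulfur assimilation (0.356% of all genes were called). The median interaction of that list was 0.27 with all libraries and 0.02 without spt6-R,KK library 1.

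ELO1 encodes a fatty acid elongase (chrX:67850-68782, minus strand). It stood at 157 to 205 CPM in WT, 409 to 503 in spt6-R, 410 to 453 in spt6-KK and 404 to 563 in spt6-R,KK. The 3 mutants overlapped one another and none overlapped WT, and the interaction was -1.18 ± 0.23 (adjusted p = 0.0218 by edgeR). ARI1 encodes an NADPH-dependent aldehyde reductase (chrVII:209006-210049, plus strand). It ranged from 39.2 to 46.6 CPM in WT and from 66.1 to 88.5 CPM over the 9 mutant libraries. Its log2 changes were 0.87, 1.00 and 0.86, and its interaction was -1.0 ± 0.19 (adjusted p = 0.0147 by edgeR).

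snR38 is a C/D small nucleolar RNA encoded in an intron of TEF4, a gene of a translation elongation factor subunit (chrXI:283185-283279, plus strand). It measured 7.29 to 11.5 CPM in WT, 24.7 to 30.4 in spt6-R, 23.8 to 32.2 in spt6-KK, and 36.9, 23.7 and 15.9 in the 3 spt6-R,KK libraries. The double mutant spread over more than the range of both single mutants, and the interaction was -1.61 ± 0.35 (adjusted p = 0.0474 by edgeR). The host gene TEF4 moved the other way, with log2 changes of -0.31, -0.74 and -0.88 and an interaction of 0.17 ± 0.17 (adjusted p = 0.654).

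TRP1, a gene of tryptophan synthesis that is also used as a selectable marker, had the largest interaction of the called genes, -4.38 ± 0.35 (chrIV:461842-462516, plus strand; adjusted p = 1.96e-08 by edgeR). It was counted with 6, 4 and 3 reads in the WT libraries, 13 reads in all, against 389 reads in spt6-R, 486 in spt6-KK and 542 in spt6-R,KK. Scaled for depth, the ratio to WT was 28.6 in spt6-R (95% interval 16.5 to 54.2), 29.3 in spt6-KK (17 to 55.4) and 38.8 in spt6-R,KK (22.5 to 73.3), where the intervals cover counting error only. In the RPB1 strains TRP1 stood at 15.7 to 20.3 CPM in the single mutants and at 0.470 to 1.27 CPM in rpb1-TPY,FSP, near WT. The labels do not give the TRP1 allele of any strain. Whether the WT strain carries another allele than the mutants cannot be told apart from a change of its transcript. The counts of called and of saturating genes in this report include TRP1.

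The saturating genes that fell were CAR2 and OXA1. CAR2 encodes ornithine transaminase of arginine breakdown (chrXII:1012501-1013775, plus strand). It measured 155, 159 and 143 CPM in WT, 74.9, 80.8 and 86.3 in spt6-R, 48.1, 59.5 and 59.6 in spt6-KK, and 105, 79.5 and 69 in spt6-R,KK. The double mutant lay above every spt6-KK library, overlapped spt6-R and lay below WT. It was 0.60 higher than spt6-KK (95% interval 0.29 to 0.92) and 0.07 from spt6-R (-0.25 to 0.38) on the log2 scale, and the interaction was 1.52 ± 0.21 (adjusted p = 0.000882 by edgeR). OXA1 encodes the insertase of the mitochondrial inner membrane (chrV:475020-476228, plus strand). It stood at 102 to 113 CPM in WT, 78.9 to 86.0 in spt6-R, 54.3 to 58.6 in spt6-KK and 68.5 to 76.1 in spt6-R,KK, 4 ranges without overlap in which the double mutant lay between the single mutants. Its interaction was 0.73 ± 0.15 (adjusted p = 0.0354 by edgeR).

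**Figure D2:**
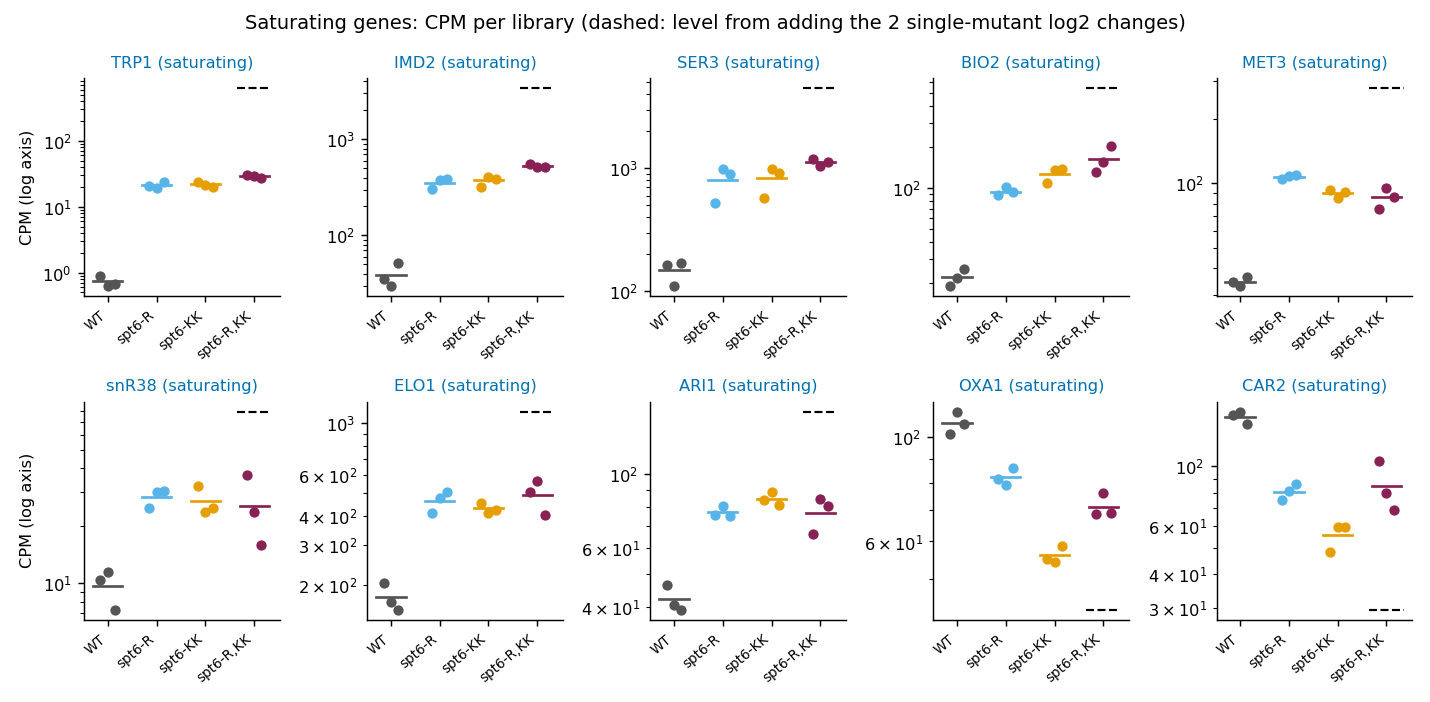
Level in CPM (log axis) of the 10 saturating genes in each library of the 4 strains, with a bar at the strain mean and a dashed mark at the level given by adding the log2 changes of the single mutants. The double-mutant points of IMD2, at 512 to 546 CPM, lie far under the mark at 3382 CPM, and those of CAR2, at 69 to 105 CPM, lie above theirs at 29.6 CPM.

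The synergistic genes were BNA7, HRI1, RPS6A and ESBP6. In BNA7, HRI1 and ESBP6 the change in either single mutant was at most 0.30 on the log2 scale and did not pass the test, and in RPS6A it was -0.38 in spt6-R (adjusted p = 0.0397 by edgeR). The double mutant changed by 0.98 to 1.26 log2 units in size in all 4. The promoter regions of the 3 with the largest interactions are shown in the same window and with the same capitals.
BNA7 (chrIV:1324340-1324589, minus strand): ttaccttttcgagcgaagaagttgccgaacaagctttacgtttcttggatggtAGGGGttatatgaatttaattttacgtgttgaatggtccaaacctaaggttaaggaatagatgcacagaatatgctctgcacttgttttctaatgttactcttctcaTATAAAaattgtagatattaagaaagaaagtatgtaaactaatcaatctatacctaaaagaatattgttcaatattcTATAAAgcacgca
ESBP6 (chrXIV:392268-392517, minus strand): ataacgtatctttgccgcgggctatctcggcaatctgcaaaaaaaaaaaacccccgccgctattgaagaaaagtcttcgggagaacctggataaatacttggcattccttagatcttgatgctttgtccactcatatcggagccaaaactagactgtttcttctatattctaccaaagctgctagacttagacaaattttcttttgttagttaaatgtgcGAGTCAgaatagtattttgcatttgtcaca
HRI1 (chrXII:730475-730724, plus strand): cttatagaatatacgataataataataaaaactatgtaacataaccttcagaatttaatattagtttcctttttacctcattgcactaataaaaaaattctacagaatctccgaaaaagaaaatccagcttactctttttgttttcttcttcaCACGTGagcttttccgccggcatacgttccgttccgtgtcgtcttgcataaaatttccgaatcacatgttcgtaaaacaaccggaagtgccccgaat
The BNA7 window holds an AGGGG and 2 TATAAA matches, the ESBP6 window the reverse complement of TGACTC and the HRI1 window a CACGTG. Of the BNA7 window, 113 bases lie within TIF35, the gene upstream on the same strand, and the AGGGG is in that stretch.

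BNA7 encodes kynurenine formamidase, an enzyme of NAD synthesis from tryptophan (chrIV:1323454-1324239, minus strand). It measured 25.4, 23.6 and 24.4 CPM in WT, 28.7, 29.1 and 32.6 in spt6-R, 29.8, 25.8 and 25.1 in spt6-KK, and 17.5, 8.53 and 11 in spt6-R,KK. All double-mutant libraries lay below all others, while spt6-R lay above WT and spt6-KK overlapped it. The log2 changes were 0.30 (adjusted p = 0.309), 0.14 (adjusted p = 0.65) and -0.98 (adjusted p = 0.000439), and the interaction was -1.42 ± 0.26 (adjusted p = 0.0147, all by edgeR). TIF35, which encodes a translation initiation factor subunit and ends 237 bases before BNA7, had log2 changes of -0.36, 0.02 and -0.99 and an interaction of -0.64 ± 0.20 (adjusted p = 0.138 by edgeR).

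HRI1 encodes a protein of unknown function (chrXII:730825-731559, plus strand). It measured 118, 94.0 and 107 CPM in WT, 97.6, 108 and 89.0 in spt6-R, 118, 107 and 101.1 in spt6-KK, and 58.4, 48.2 and 50.7 in spt6-R,KK. WT and both single mutants overlapped, and the double mutant lay below all of them. The interaction was -0.93 ± 0.19 (adjusted p = 0.032 by edgeR), so that the level was 1.91-fold lower than the sum.

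RPS6A encodes a protein of the small ribosomal subunit (chrXVI:377291-378395, minus strand). It measured 555, 569 and 600 CPM in WT, 453, 459 and 416 in spt6-R, 646, 624 and 609 in spt6-KK, and 275, 262 and 269 in spt6-R,KK. The 4 strains did not overlap, with spt6-KK above WT, spt6-R below it and the double mutant lowest. The interaction was -0.85 ± 0.16 (adjusted p = 0.0147 by edgeR). RPS6B encodes the same protein from a near-identical copy, and it is not stated how reads that match both were counted, so the division between the copies is uncertain. RPS6B had log2 changes of -0.56, -0.43 and -1.28 and an interaction of -0.29 ± 0.17 (adjusted p = 0.441 by edgeR).

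ESBP6, which encodes a protein related to monocarboxylate permeases, was the synergistic gene that rose (chrXIV:390146-392167, minus strand). It measured 41.5, 46.8 and 41.7 CPM in WT, 52.3, 47.7 and 52.6 in spt6-R, 51.0, 42.6 and 45.8 in spt6-KK, and 111, 92.8 and 108 in spt6-R,KK. The double mutant lay above all other libraries, while spt6-KK overlapped WT and spt6-R. The log2 changes were 0.23, 0.10 and 1.26, and the interaction was 0.93 ± 0.19 (adjusted p = 0.0293 by edgeR).

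In the 6 mixed genes the fitted changes of the single mutants lay to one side of WT and the double mutant lay near WT. By library, spt6-R overlapped WT in AIM7. All 6 differed from WT in spt6-KK (adjusted p from 0.0028 to 0.0459 by edgeR). In spt6-R the adjusted p ran from 0.0563 to 0.212 and in spt6-R,KK from 0.349 to 0.992, and spt6-R was not tested against spt6-KK. SPC25, a kinetochore protein of the Ndc80 complex (chrV:191959-192624, minus strand), measured 14.1, 12.6 and 13.9 CPM in WT, 10.3, 7.26 and 11.2 in spt6-R, 8.20, 9.23 and 8.93 in spt6-KK, and 12, 21.1 and 15 in spt6-R,KK. The single mutants lay below WT and the double mutant overlapped it, with an interaction of 1.35 ± 0.28 (adjusted p = 0.0354 by edgeR). DEP1, a subunit of the Rpd3L histone deacetylase complex (chrI:129270-130487, plus strand), stood at 23.7 to 26 CPM in WT, 16 to 21 in spt6-R, 15.4 to 19.4 in spt6-KK and 22.8 to 31.3 in spt6-R,KK. Its interaction was 1.01 ± 0.22 (adjusted p = 0.0446 by edgeR). PUS2, a mitochondrial pseudouridine synthase (chrVII:383654-384766, plus strand), followed the same order, at 23 to 25.3 CPM in WT, 15.6 to 21.2 over the single mutants and 23.4 to 26.7 in the double mutant. Its interaction was 0.88 ± 0.18 (adjusted p = 0.032 by edgeR).

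The reverse order was seen in YMR226C, ERG8 and AIM7. YMR226C, a gene with no other name in the table used here (chrXIII:721593-722396, minus strand), measured 127, 124 and 115 CPM in WT, 180, 143 and 160 in spt6-R, 208, 188 and 178 in spt6-KK, and 143, 114 and 109 in spt6-R,KK. Both single mutants lay above WT, and the double mutant overlapped WT. Its log2 change in the double mutant was -0.002 (adjusted p = 0.992), and its interaction was -1.04 ± 0.18 (adjusted p = 0.00929, both by edgeR). ERG8, the phosphomevalonate kinase of sterol synthesis (chrXIII:712316-713671, plus strand), stood at 110 to 115 CPM in WT, 133 to 169 over the single mutants and 84.8 to 118 in the double mutant, with an interaction of -0.92 ± 0.16 (adjusted p = 0.0121 by edgeR). AIM7, which encodes a regulator of actin branching (chrIV:578663-579112, plus strand), stood at 28.7 to 35.6 CPM in WT, 35.4 to 50.1 over the single mutants and 27.1 to 35.6 in the double mutant. Its interaction was -0.96 ± 0.19 (adjusted p = 0.0218 by edgeR).

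**Figure D3:**
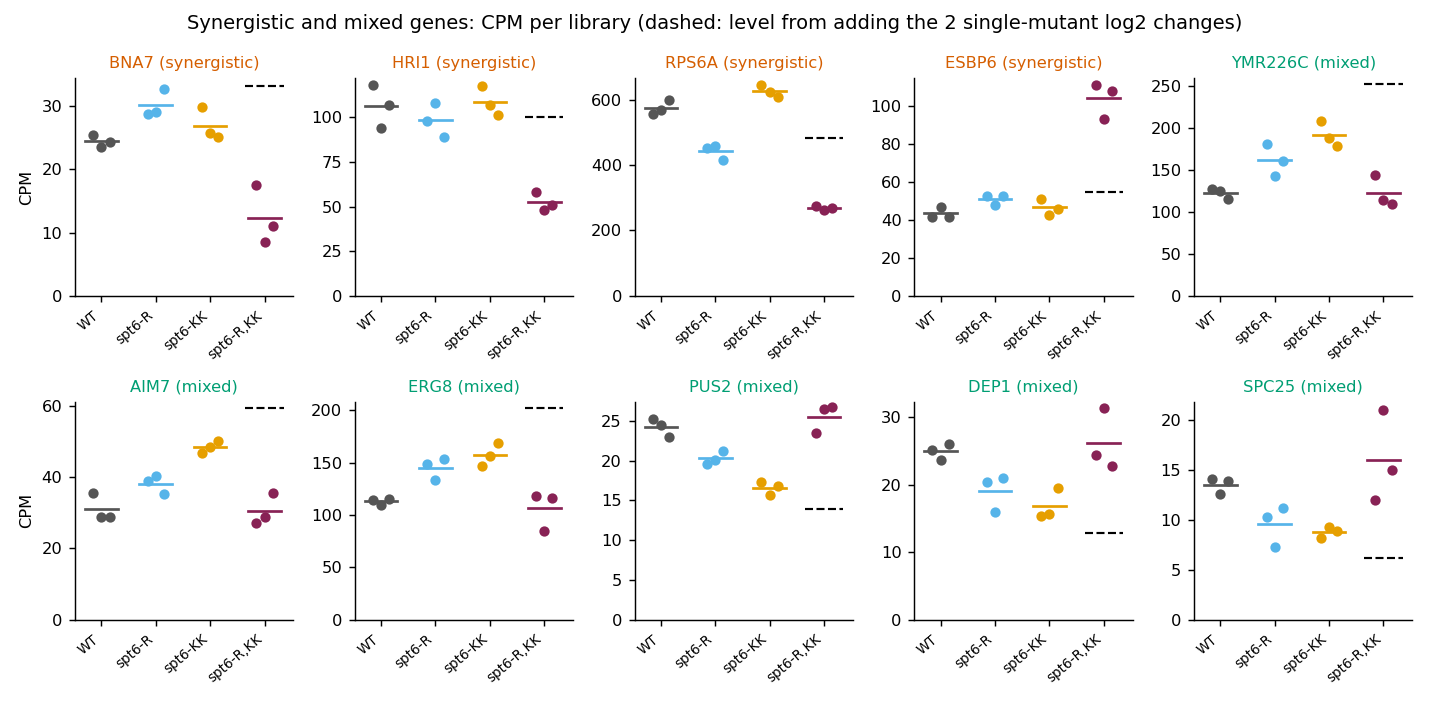
Level in CPM of the 4 synergistic and 6 mixed genes in each library of the 4 strains, with a bar at the strain mean and a dashed mark at the level given by adding the log2 changes of the single mutants. The double-mutant points of BNA7, at 8.53 to 17.5 CPM, lie under all other points of that gene, and those of YMR226C, at 109 to 143 CPM, lie around its WT points at 115 to 127 CPM.

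The calls differed in how far they rested on single libraries. CAR2, TRP1, IMD2, BIO2, MET3 and YMR226C remained called in all 18 alternative fits, 12 of which each left out 1 library. Of the 20 genes, 6 remained called without WT library 2, 8 without spt6-R library 2 and 8 without spt6-KK library 2, whereas all 20 remained called without spt6-R,KK library 1. SPC25, PUS2 and OXA1 were called in 7 of the 18 fits and DEP1 and snR38 in 6. SER3, ELO1, ESBP6 and AIM7 were called in 12, HRI1 in 9, ARI1 and RPS6A in 14, and BNA7 and ERG8 in 17. All 20 kept the direction of their departure when the changes were added in CPM instead of on the log2 scale. Departures in CPM were not tested, and some were small beside the spread. BIO2 measured 163 ± 37.1 CPM in spt6-R,KK (SD, n = 3) against 199 from the sum in CPM. For SER3 these were 1126 ± 83.1 and 1483 CPM, with SDs of 243 in spt6-R and 217 in spt6-KK. All 20 also kept their sign in the leave-one-out fits.

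The interaction was also set against that of rpb1-TPY and rpb1-FSP by testing the difference in a contrast from which WT cancels. That difference was called for 17 genes (0.303%), 5 above and 12 below, with 620 at an unadjusted p under 0.05. Of the 20 genes with a called interaction 6 were among them, all of them saturating and TRP1 included. Since these genes were picked on libraries that the difference uses as well, this count is a description. IMD2 measured 45.3 to 51.6 CPM in rpb1-TPY, 260 to 305 in rpb1-FSP and 396 to 534 in rpb1-TPY,FSP. Unlike either SPT6 single mutant, rpb1-TPY stayed within the WT range of 29.8 to 51.9 CPM, while the levels of the double mutants overlapped. The rpb1 interaction of IMD2 was 0.44 ± 0.23, and the difference between the interactions was -3.14 ± 0.27 (adjusted p = 8.48e-07 by edgeR).

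In BIO2, SER3 and MET3 rpb1-TPY overlapped WT as well, while rpb1-FSP lay above it. BIO2 stood at 21.5 to 28.5 CPM in rpb1-TPY and at 98.0 to 112 in rpb1-FSP, and the difference was -2.08 ± 0.30 (adjusted p = 0.00107 by edgeR). SER3 stood at 114 to 270 CPM in rpb1-TPY and at 534 to 758 in rpb1-FSP, and the difference was -2.42 ± 0.47 (adjusted p = 0.0206). MET3 stood at 29.9 to 40 CPM in rpb1-TPY, 61.8 to 69.4 in rpb1-FSP and 64.4 to 65.5 in rpb1-TPY,FSP, and its difference was -1.68 ± 0.19 (adjusted p = 3.71e-05). Its rpb1 double mutant thus overlapped rpb1-FSP and lay below every spt6-R,KK library. CAR2 stood at 139 to 159 CPM in rpb1-TPY, 58.0 to 66.3 in rpb1-FSP and 51.5 to 77.2 in rpb1-TPY,FSP, and its difference was 1.38 ± 0.26 (adjusted p = 0.0206, all by edgeR).

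None of the 4 synergistic genes differed in the tested contrast, and all 4 had a called rpb1 interaction of the same sign (3.19% of all genes had a called rpb1 interaction). Both interactions use the WT libraries, so their values are given side by side only. The rpb1 interaction was -1.30 ± 0.26 for BNA7, 1.2 ± 0.19 for ESBP6, -0.73 ± 0.19 for HRI1 and -0.68 ± 0.16 for RPS6A. The difference between the interactions was -0.12 ± 0.32 for BNA7, -0.27 ± 0.23 for ESBP6, -0.20 ± 0.24 for HRI1 and -0.17 ± 0.19 for RPS6A (lowest adjusted p = 0.679 by edgeR), which does not show that they are alike.

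**Figure D4:**
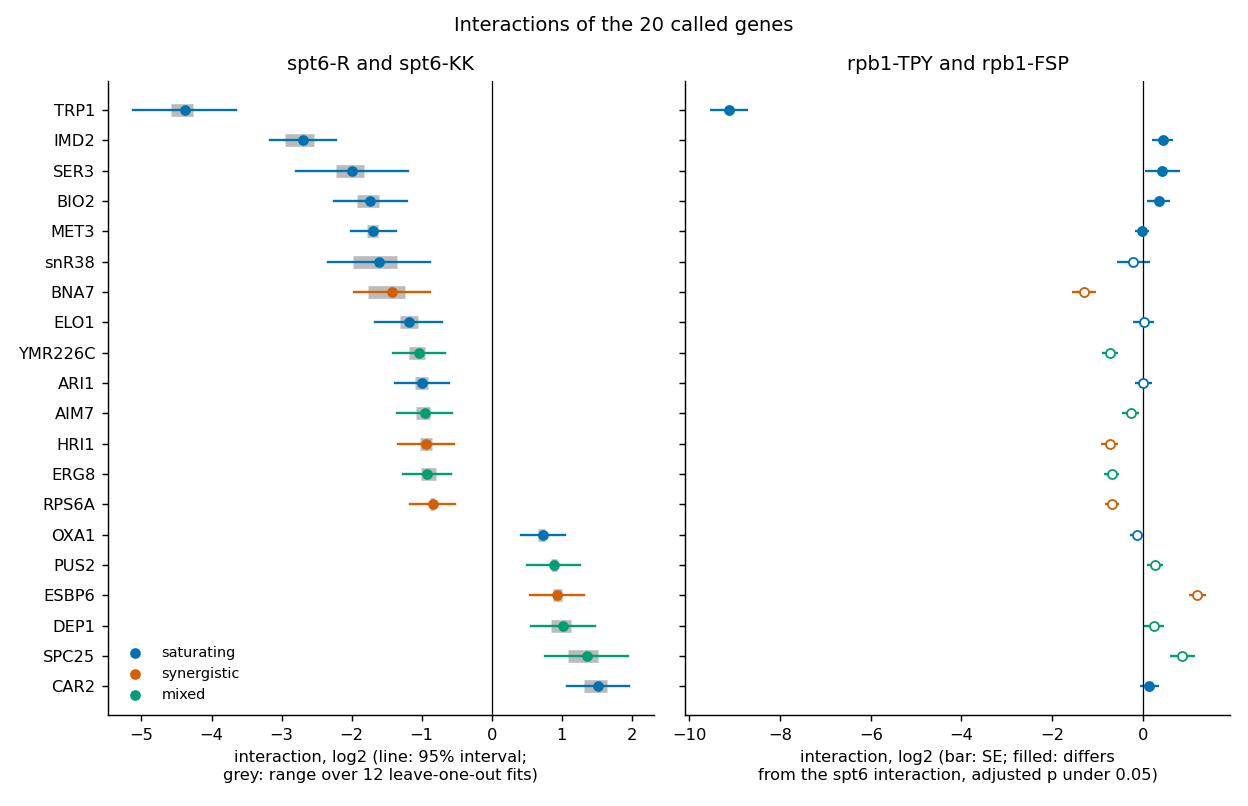
Interactions on the log2 scale of the 20 called genes for the SPT6 pair (left, with 95% interval, and grey bars for the range over 12 fits that each leave out 1 library) and for the RPB1 pair (right, with standard errors, filled where the difference between the interactions was called). IMD2, SER3, BIO2 and MET3 lie at -2.70 to -1.69 on the left and at -0.02 to 0.44 on the right.

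The gene lists gave few called genes, so that they are described by their medians beside the median of -0.01 over all genes. Of the 34 lists 8 held a called gene. Over all genes tested 0.356% were called. The list of genes controlled by start-site choice or upstream transcription had 2 called of 10 tested, IMD2 and SER3, both below the sum. In the same list URA8, a CTP synthase gene, measured 67.2 to 85.7 CPM in WT, 131 to 185 CPM over the single mutants and 174 to 200 CPM in the double mutant, and its interaction of -0.84 ± 0.21 did not pass (adjusted p = 0.0639 by edgeR). DESeq2 called it, and edgeR called it without spt6-R library 1 and with the replicate block. The 10 genes with known cryptic internal promoters had a median of 0.01 and no call by edgeR. Of them 1 had an unadjusted p under 0.05 (15% of all genes did), and DESeq2 called 0 (1.85% of all genes).

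Mating genes had the lowest medians. The alpha-specific list had a median of -1.12, but only 3 tested genes: MF(ALPHA)2 at -2.81 ± 0.80 (2 to 9 reads in the WT libraries), STE3 at -1.12 ± 0.54 (5 to 19 reads) and SAG1 at 0.68 ± 0.29. Its median ran from -1.92 without WT library 1 to -0.76 without WT library 2. Among pheromone-induced genes 23 of 27 had an interaction below 0, with a median of -0.68, and the median change was 0.48 in spt6-R, 0.51 in spt6-KK and 0.39 in spt6-R,KK. Over all genes 2858 of 5618 had an interaction below 0. None of the 27 was called by edgeR, 13 had an unadjusted p under 0.05 (15% of all genes did), and DESeq2 called 3 (1.85% of all genes). With the replicate block edgeR called 6 of them, among 80 called of all genes. AGA1, the anchor subunit of a-agglutinin, measured 18.2 to 29.8 CPM in WT, 63.8 to 96.0 in spt6-R, 39.3 to 82.0 in spt6-KK and 48.9 to 66.5 in spt6-R,KK. Its interaction was -1.54 ± 0.37 (adjusted p = 0.0616 by edgeR). KAR4, a regulator of karyogamy genes, had -1.03 ± 0.26 (adjusted p = 0.0757). DESeq2 called both, and edgeR called AGA1 without spt6-R,KK library 1 and KAR4 without library 3 of that strain. With the replicate block edgeR called AGA1 but not KAR4. The 7 a-specific genes were all below 0, with a median of -0.72. None was called by edgeR, 1 had an unadjusted p under 0.05 (15% of all genes did), and DESeq2 called 1 (1.85% of all genes). That gene with the low p was MFA1, which encodes a-factor, at -1.59 ± 0.36 (adjusted p = 0.0588). Without spt6-R,KK library 1 edgeR called MFA1, as it did with the replicate block. Leaving out spt6-KK library 1 moved the median of the a-specific genes to -0.43.

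The ribosomal protein lists lay below the sum as well. The median change of the 81 large-subunit genes was -0.40 in spt6-R, -0.43 in spt6-KK and -1.04 in spt6-R,KK, and 64 had an interaction below 0, with a median of -0.23. None was called by edgeR, and 22 had an unadjusted p under 0.05, against 15% of all genes. DESeq2 called 3, and edgeR on the 12 libraries alone called 4. Without spt6-KK library 1 that median was -0.15. The 56 small-subunit genes had median changes of -0.42, -0.39 and -1.03 and a median interaction of -0.28, with 43 below 0 and RPS6A as the called gene. Without spt6-KK library 1 the median was -0.18, and DESeq2 called 5 of these genes and edgeR on the 12 libraries alone 4. Over all genes DESeq2 called 104 (1.85%) and edgeR on the 12 libraries alone 44. With the replicate block edgeR called 2 genes of each ribosomal list, among 80 of all genes. Among the 15 genes of NAD synthesis 13 lay below 0, with a median of -0.35 and BNA7 as the called gene. In 2 of the 3 spt6-R,KK libraries the NAD list lay below WT, with medians of -0.41 and -0.60 on the log2 scale, and in library 1 it lay 0.22 above. The median interaction of this list ranged from -0.57 without spt6-R,KK library 1 to -0.09 without library 3.

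**Figure D5:**
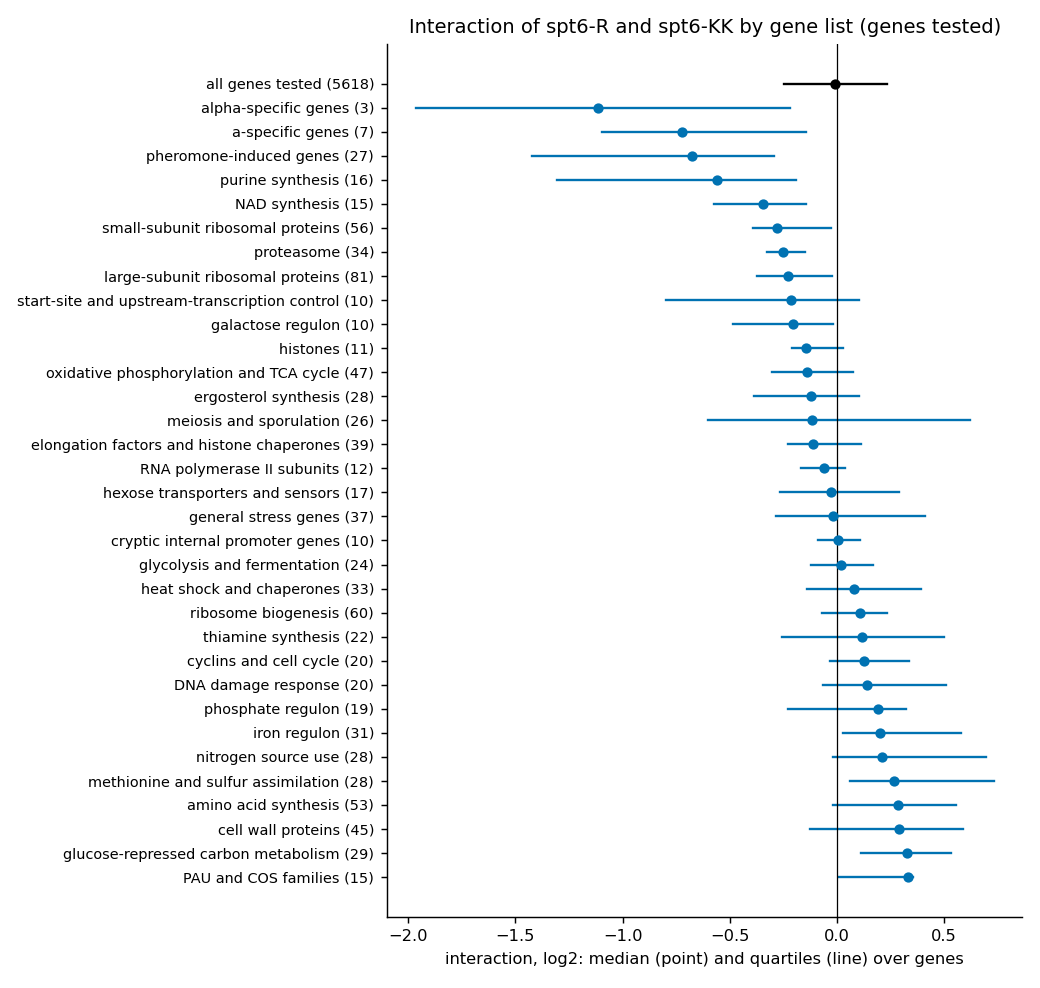
Median (points) and quartiles (lines) of the interaction on the log2 scale for all tested genes and for 33 gene lists (all but the strain markers), with the number of tested genes in parentheses. Pheromone-induced genes at -0.68, a-specific genes at -0.72 and purine synthesis genes at -0.56 lie to the left of the quartiles of all genes, which run from -0.25 to 0.23.

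The called genes were also described by level and position. The median of the mean CPM over the 4 strains was 79.3 for the 20 called genes, against 38.9 for all tested genes. By shape it was 86.3 for saturating, 76.3 for synergistic and 29.4 for mixed genes. The 20 genes lay on 11 chromosomes. IMD2 and BIO2 were within 30 kb of a chromosome end, where 4.9% of all tested genes lie, and RPS6A was the called gene with an intron. In the 5491 promoter windows of tested protein-coding genes AGGGG occurred in 20.3%, TATAAA in 39.1%, TGACTC in 7.4%, CACGTG in 3.8% and TGCACCC in 1.3%. Of the 9 saturating genes with a window 4 held TATAAA and 3 held AGGGG, while TGACTC was found in CAR2, CACGTG in BIO2 and TGCACCC in TRP1. Of the 6 mixed genes 3 held AGGGG and 1 held TATAAA, and among the 4 synergistic genes BNA7 held AGGGG and TATAAA, ESBP6 held TGACTC and HRI1 held CACGTG.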

How the data were processed

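RNA-seq counts of 12 libraries (WT, spt6-R, spt6-KK and spt6-R,KK, 3 each) were compared in a model of all 21 libraries of the study. Per the labels' protocols, total RNA was depleted of ribosomal RNA and made into stranded paired-end libraries. The submitters' processing notes name cutadapt 1.16, STAR 2.6.1b, featureCounts 1.6.3 of Subread, DESeq2 1.22.2 and the R64 (sacCer3) genome. The deposited values used here are raw read counts per gene, over full genes and, as an alternative, over the middle 70% of genes. How reads matching several places were counted is not given in the sources used here.

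Full-gene counts were fitted with edgeR 4.0.16 in R 4.3.3 (filterByExpr, TMM scaling, quasi-likelihood test, strain as the only term), and p-values were adjusted by Benjamini-Hochberg over the 5618 genes kept. 205 genes were left out by the filter. CPM use the TMM-scaled library sizes. Depth ran from 4860861 to 7729008 reads, which limits precision for genes of a few reads, and the common biological coefficient of variation was 0.154. Alternatives were RLE scaling, no filter, a fit of the 12 libraries, a replicate block, mid-gene counts, DESeq2 1.42.0, each library left out in turn and sums of CPM.

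Named were all 20 called genes (at least 20 reads on average in 1 of the 4 strains), SPT6, RPO21, up to 4 called genes per list, members of the marker and start-site lists, and the 5 largest differences from the rpb1 interaction each way. PHO12, TIF35, TEF4, RPS6B, SER33 and the uncalled genes of other lists were chosen after their values were seen. The members and lists were chosen with earlier results of these data known. Promoter windows were cut from the R64 genome in place of the promoter table first planned, and TRP1 was passed over because its allele is not given. Coordinates come from the R64 annotation, matched for 5584 of 5618 identifiers.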

Additional observations from a re-analysis of the deposited data

Results flagged for a closer look

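The following genes had an interaction that differed between the SPT6 and the RPB1 pair in a test of the difference (edgeR quasi-likelihood test, adjusted over all genes). The differences of CAR2 (1.38), MET3 (-1.68), BIO2 (-2.08), SER3 (-2.42) and IMD2 (-3.14) on the log2 scale are described with their levels in the report. TRP1 differed by 4.75 (adjusted p = 1.94e-08). It stood at 15.7 to 20.3 CPM in the single mutants of RPB1 and at 1.27, 0.470 and 0.565 CPM in rpb1-TPY,FSP, where it was counted with 12, 3 and 4 reads. These levels in rpb1-TPY,FSP are near those of WT, at 0.628 to 0.902 CPM, and the TRP1 allele of the strains is not given.

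Genes outside the 20 also differed between the pairs. RPL37B and RPL27B, which encode large-subunit ribosomal proteins and have near-identical copies, differed by 1.09 and 1.02 (adjusted p = 0.0206 for both). RPL37B stood at 230 to 269 CPM in spt6-R,KK and at 233 to 256 CPM in rpb1-TPY,FSP, but at 736 to 762 CPM in rpb1-TPY against 478 to 540 CPM in spt6-R. TIM44, a subunit of the mitochondrial import motor, differed by 0.92 (adjusted p = 0.0304). ADH2, the glucose-repressed alcohol dehydrogenase, differed by -2.84 (adjusted p = 0.0176). It rose to 47.5 to 58.0 CPM in spt6-R and 49.0 to 70.4 CPM in spt6-KK from 9.11 to 13.7 CPM in WT, and stood at 72.6 to 151 CPM in spt6-R,KK. In rpb1-TPY it was measured at 6.21 to 18.6 CPM and in rpb1-TPY,FSP at 77.3 to 150 CPM. MF(ALPHA)2, an alpha-factor gene, differed by -4.41 (adjusted p = 0.0459) with at most 56 reads in any of these libraries.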

How the results depend on the processing

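The interaction was called for 6 genes above and 14 below the sum. With the 12 libraries alone the counts were 12 and 32, with 22 synergistic and 16 saturating genes. With DESeq2 they were 42 and 62, with 43 synergistic and 40 saturating genes, and 78 genes differed from the rpb1 interaction in place of 17. Mid-gene counts gave 2 genes above the sum. With 1 library left out, the calls ranged from 1 to 17 above and from 5 to 45 below, synergistic genes from 0 to 30, saturating genes from 5 to 17, and differences from the rpb1 interaction from 6 to 58. The lowest total, 6 calls, came without WT library 2 and the highest, 60, without spt6-R,KK library 1. DESeq2 called all 20 of the main calls, the 12-library fit 17, and mid-gene counts 15. RLE scaling gave 20 calls and no filter 19.

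The replicate numbers did not pair all of the libraries. Of 18 same-numbered pairs 9 had a correlation over 0.1, with a range from -0.48 to 0.49. Best correlation with the own number was found for 8 of 12 libraries. Between mutant strains every same-numbered pair was positive, from 0.066 to 0.49, whereas such pairs with WT ran from -0.48 to 0.15. The mutant libraries thus shared variation by number, for which the main fit has no term. With the replicate block 29 genes were called above and 51 below, 30 of them synergistic and 35 saturating, and 42 differed from the rpb1 interaction. The block also called URA8, MFA1, AGA1 and 6 of the 27 pheromone-induced genes. The causes of these differences were not tested. Counts of a few reads limit the precision for TRP1 and MF(ALPHA)2 in WT.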

Other observations

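Further lists had a median interaction away from 0. Among the 16 genes of purine synthesis 15 had an interaction below 0, with a median of -0.56. An unadjusted p under 0.05 was found for 3 of them (15% of all genes), and neither edgeR nor DESeq2 called any. The list was uneven between libraries of a strain, with median log2 levels against the WT mean of 0.30, -0.61 and 0.15 in WT, -0.40, 0.48 and 0.38 in spt6-R, -0.46, 0.24 and -0.02 in spt6-KK and -0.42, -0.43 and -0.85 in spt6-R,KK. ADE17, the last enzyme of IMP synthesis, ranged from 190 to 1112 CPM within WT and from 105 to 266 CPM in spt6-R,KK, with an interaction of -1.64 ± 0.80 (adjusted p = 0.344 by edgeR). Proteasome subunits had a median interaction of -0.25, with 30 of 34 below 0 and median changes of -0.05, 0.19 and -0.08. None was called by edgeR, and 6 of the 34 had an unadjusted p under 0.05, near the share of all genes (15%). DESeq2 called 1 (1.85% of all genes), and edgeR with the replicate block called 1.

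Glucose-repressed genes of carbon metabolism lay above the sum, with a median interaction of 0.33 and 24 of 29 above 0. Neither tool called any of them, and 2 had an unadjusted p under 0.05 (15% of all genes did), both below the sum. Their median log2 level against WT was 0.58 in spt6-R,KK library 1 but 1.49 and 1.25 in libraries 2 and 3, and without library 2 the median interaction was 0.10. Amino acid synthesis genes had a median interaction of 0.29. In spt6-R,KK their median level was 1.15 above WT in library 1 and 0.10 and 0.28 below WT in the others (-0.10 and -0.28 on the log2 scale). LEU4, of leucine synthesis, measured 3868, 1666 and 1135 CPM in these libraries, and LYS2, of lysine synthesis, 410, 158 and 135. Without library 1 the median interaction of the list was -0.21, so its direction rests on that library.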
